A study of Mus musculus with 4 samples.

Results

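Open chromatin was described at 10 genes of the Bcl2 family, the regulators of mitochondrial apoptosis, in mouse colonic organoids. The genes were chosen by name: Bcl2, Bcl2l1, Mcl1, Bax, Bak1, Bcl2l11, Bid, Bbc3, Pmaip1 and Bmf. They are 10 of 21631 protein-coding genes on the autosomes and the X chromosome. All 10 were found in the annotation. Their open regions were those with a summit inside the gene or within 1 kb of it, plus regions away from gene ends whose nearest protein-coding gene end, within 100 kb, belonged to the gene. This gave 125 of 113404 open regions.

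Accessibility was measured with bulk ATAC-seq. In this assay the enzyme Tn5 cuts and tags chromatin where it is open. The organoids, 3-dimensional cultures of wild-type colonic epithelium, came from mice with chronic colitis or from healthy controls and were treated for 24 h with 10 µM T-5224, an inhibitor of the transcription factor AP-1, or with 0.1% DMSO, its vehicle. The 4 groups were colitis organoids with T-5224, colitis organoids with DMSO, control organoids with T-5224 and control organoids with DMSO, with 1 library each. All carried the same batch label, all were grown in a Wnt-containing medium and all were frozen viably and thawed before nuclei were taken. The sources used here give neither the number of animals behind each culture nor their age. All values came from 1 peak list that covers the series as a whole and does not separate the libraries, so neither T-5224 with DMSO nor colitis with control could be compared. Which libraries entered the list is not stated in the sources used here. There is therefore no spread between replicates and no test between conditions, and the values below are a map of the family in 1 list.

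The Bcl2 family decides whether a cell permeabilises its outer mitochondrial membrane. Survival proteins (Bcl2, Bcl2l1, which encodes BCL-XL, and Mcl1) bind and hold back the pore-forming effectors Bax and Bak1, while BH3-only proteins (Bcl2l11 or BIM, Bid, Bbc3 or PUMA, Pmaip1 or NOXA, and Bmf) bind the survival proteins and can activate the effectors. Once the pore opens, cytochrome c leaves the mitochondria and caspases are activated. In the gut this pathway is known for removing damaged epithelial cells, with PUMA a main mediator of the death of intestinal progenitors after irradiation in mice.

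Promoter sequences of 5 members are shown. Bcl2l11 and Mcl1 had the highest folds when the strongest start of each gene was taken, and Bcl2 the lowest. Bcl2l11, Bbc3 and Bax are shown for motifs of factors known to regulate them. Each sequence is 300 bases, from 250 before to 50 after an annotated start, 5′ to 3′ in the direction of transcription, from RefSeq on GRCm38.p6. In the first set of 3 the capitals mark 21 bases centred on the summit of accessibility. Mcl1 lies at chr3:95658471-95658770 (plus strand), Bcl2 at chr1:106714241-106714540 (minus strand), and the downstream start of Bcl2l11 at chr2:128127325-128127624 (plus strand).
Mcl1: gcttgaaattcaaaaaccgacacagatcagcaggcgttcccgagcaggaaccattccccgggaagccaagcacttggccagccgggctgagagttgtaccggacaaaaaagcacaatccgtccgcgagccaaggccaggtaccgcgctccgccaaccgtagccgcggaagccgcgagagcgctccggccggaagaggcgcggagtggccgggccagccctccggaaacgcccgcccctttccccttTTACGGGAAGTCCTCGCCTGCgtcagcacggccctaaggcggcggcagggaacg
Bcl2: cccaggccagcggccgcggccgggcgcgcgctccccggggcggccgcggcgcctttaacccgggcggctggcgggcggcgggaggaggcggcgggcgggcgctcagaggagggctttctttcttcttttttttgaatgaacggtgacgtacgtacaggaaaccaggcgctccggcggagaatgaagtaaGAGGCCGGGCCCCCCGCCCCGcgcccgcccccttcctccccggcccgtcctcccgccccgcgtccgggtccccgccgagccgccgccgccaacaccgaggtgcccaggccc
Bcl2l11 downstream start: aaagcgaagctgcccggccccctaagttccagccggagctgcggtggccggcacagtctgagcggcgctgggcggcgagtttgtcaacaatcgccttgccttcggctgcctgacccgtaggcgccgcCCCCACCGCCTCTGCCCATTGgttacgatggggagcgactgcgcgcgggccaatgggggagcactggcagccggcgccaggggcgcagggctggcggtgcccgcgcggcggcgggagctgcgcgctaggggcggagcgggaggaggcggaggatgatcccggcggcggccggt

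In the second set the capitals mark a motif match. They are the FOXO core TGTTTAC or its reverse complement at the upstream start of Bcl2l11 (chr2:128125788-128126087, plus strand) and at a start of Bbc3 (chr7:16310011-16310310, plus strand), and a decamer of the p53 consensus at Bax (chr7:45466849-45467148, minus strand). FOXO factors and p53 are known regulators of these genes, and a match of letters is not evidence of binding.
Bcl2l11 upstream start: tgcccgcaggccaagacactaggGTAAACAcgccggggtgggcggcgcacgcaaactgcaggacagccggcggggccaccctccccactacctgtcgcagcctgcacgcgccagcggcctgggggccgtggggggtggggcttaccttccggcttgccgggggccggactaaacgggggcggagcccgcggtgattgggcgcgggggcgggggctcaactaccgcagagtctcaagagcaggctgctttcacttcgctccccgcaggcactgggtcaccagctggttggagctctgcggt
Bbc3: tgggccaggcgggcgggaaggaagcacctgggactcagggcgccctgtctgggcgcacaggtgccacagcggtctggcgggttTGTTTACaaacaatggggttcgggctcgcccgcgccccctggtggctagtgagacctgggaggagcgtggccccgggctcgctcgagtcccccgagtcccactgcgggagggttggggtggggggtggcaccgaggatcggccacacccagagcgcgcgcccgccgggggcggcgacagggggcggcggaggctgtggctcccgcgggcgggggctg
Bax: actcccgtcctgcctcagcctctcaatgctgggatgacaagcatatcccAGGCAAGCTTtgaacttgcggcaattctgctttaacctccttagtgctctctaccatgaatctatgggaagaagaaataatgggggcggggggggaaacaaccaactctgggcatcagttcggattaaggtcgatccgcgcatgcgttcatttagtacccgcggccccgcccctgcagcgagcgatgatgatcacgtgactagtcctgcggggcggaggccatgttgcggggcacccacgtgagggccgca

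Levels are given as fold, the authors' value at each summit: pileup plus 1 over an even background plus 1, on a linear scale. The list held 157922 summits in 113404 regions with a median region fold of 4.99. Intervals given with a fold are exact Poisson 95% intervals of that summit's pileup and cover counting error only. A summit at 4.99-fold has one of 3.63 to 6.70. The tissue label was checked on marker genes. All 10 colonic epithelium markers had a summit in the gene or within 1 kb, against 74.5% of protein-coding genes. Their strongest folds were 11.8 to 59.1, against a median of 17.4 over protein-coding genes. Of the 5 leukocyte markers used here 2 had such a summit, Itgam at 6.96-fold and Csf1r at 3.71-fold, and Ptprc, Cd3e and Cd79a had none. Of 6 markers of fibroblasts, endothelium and muscle 5 had such a summit, up to 8.81-fold. At a gene end 1 of them, Acta2, had a summit, at 3.83-fold, against 64.3% of protein-coding genes. The share of other cell types in the libraries was not tested.

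The promoters of all members with an annotated start were open. A summit lay within 1000 bp of such a start in 9 of 9 members, against 64.5% of the 17274 protein-coding genes with an entry in the promoter table. For Pmaip1 the outer gene end was used. The strongest start fold had a median of 31.9 over the 9 members and 12.1 over the 17274 protein-coding genes in the promoter table. Genes without a summit were counted as 0. Within 1000 bp of an outer gene end, 10 of 10 members had a summit, against 64.3% of genes. In the gene or within 1 kb, 10 of 10 had one, against 74.5%.

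By the strongest start of each gene, the 9 members with a start spanned 17.7- to 48.0-fold. Bcl2l11 (48.0-fold, 43.5 to 52.8) and Mcl1 (47.1-fold, 42.6 to 51.9) were highest, with overlapping intervals. The interval of Mcl1 ended just above that of the next gene, Bcl2l1 (37.7-fold, 33.7 to 42.0). Below it came Bbc3 (32.9-fold, 29.2 to 37.0), Bid (31.9-fold, 28.2 to 35.9), Bmf (27.2-fold, 23.9 to 31.0), Bax (25.6-fold, 22.4 to 29.2), Bak1 (21.1-fold, 18.2 to 24.4) and Bcl2 (17.7-fold, 15.0 to 20.8). From Bcl2l1 down, the interval of every gene overlapped that of its neighbour, so no order was claimed between neighbouring ranks. The ends of the order were clearly separate. By this measure Bcl2 and Bak1 were thus lowest and still lay at the 55.3 and 59.0 percentiles of protein-coding genes with an annotated start. Bcl2l11 lay at 88.6. Weaker single starts of Bmf (5.33- and 14.6-fold) and Bcl2l1 (13.9-fold) were not ranked.

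**Figure D1:**
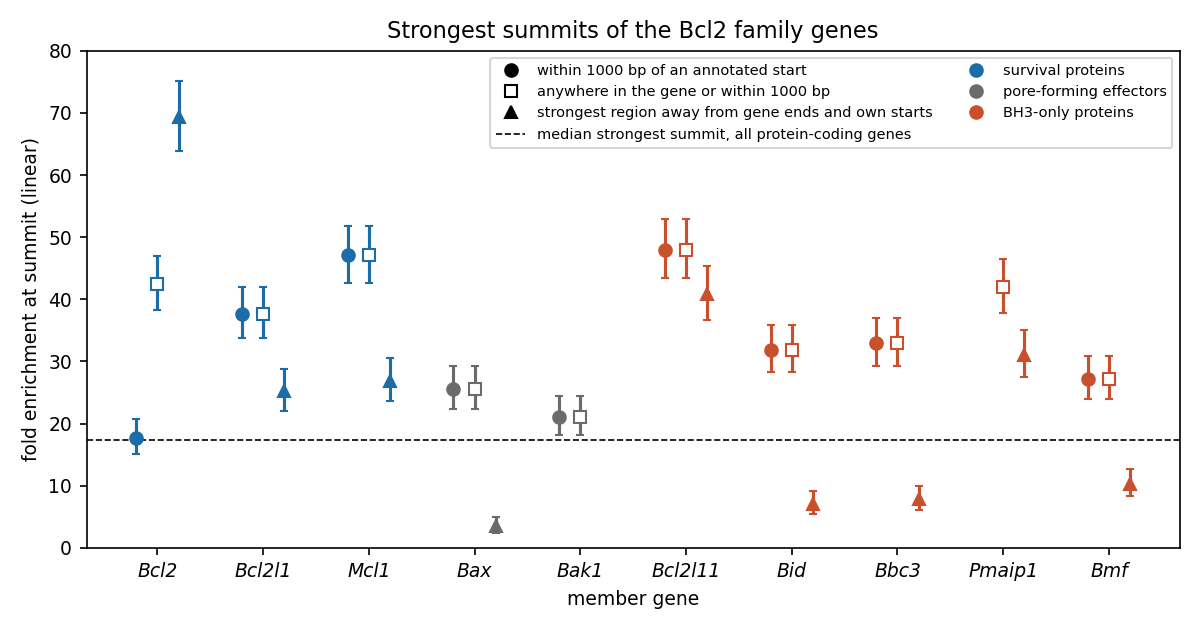
Fold enrichment (linear, y axis) of the strongest summit at an annotated start (circles), anywhere in the gene or within 1000 bp (squares), and in the strongest region away from gene ends and own starts (triangles) for each member (x axis), with exact Poisson 95% intervals as bars. Circle and square coincide in 8 members, and only Bcl2 has its triangle, at 69.3-fold, above both. The dashed line is the median over all protein-coding genes, 17.4-fold; Pmaip1 has no circle and Bak1 no triangle.

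The plot of strongest summits by gene shows that in 8 of the 9 members with an annotated start the strongest summit of the gene was the one at a start. The share among protein-coding genes with a summit and a start was 70.5%. The exception was Bcl2, in which a region deep in the gene reached 42.4-fold (38.2 to 47.0). By role, the strongest summit in or within 1 kb of the gene had a median of 42.4-fold over the 3 survival genes, 23.4-fold over the 2 effectors and 32.9-fold over the 5 BH3-only genes. The effectors, Bax at 25.6-fold and Bak1 at 21.1-fold, were the lowest of the 10 on this measure. The interval of Bax overlapped that of Bmf, however, and the survival median is the value of the region deep in Bcl2. At an outer gene end the order of the roles differed. The medians there were 17.7-fold for survival genes, 23.4-fold for effectors and 31.9-fold for BH3-only genes.

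Among the survival genes, Bcl2 (chr1:106538176-106714290, minus strand, 176 kb) encodes the founding member of the family. It had a moderately open start and stronger regions far from it. Its start region, 106713572-106715074, had a single summit of 17.7-fold, 51 bp upstream of the start, inside the capitals of the sequence above. A region at 106700438-106701178, 13.5 kb into the gene, reached 19.7-fold (16.9 to 22.9). A region at 106586259-106587581, 127 kb from the start, reached 42.4-fold. The strongest of all, at 106477527-106479034, had 69.3-fold (63.9 to 75.1) and lay 60.1 kb beyond the far end of Bcl2, with Phlpp1 as the next protein-coding gene 83.8 kb away. Among all annotated genes the nearest end was that of the pseudogene Gm6651, at 38.2 kb. This was the only member whose assigned distal regions held a summit stronger than its start, 1 of 9, against 29% of protein-coding genes. Nearness is the whole basis of the assignment, and which gene the region acts on was not tested.

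The pattern at Bcl2l1 (chr2:152758732-152833803, minus strand, 75.1 kb) was different: many open regions lay along the gene, most densely in the part near its starts. It had 47 summits in 29 regions, the most of the 10 members, and 32.1% of its length was called open (percentile 91.4). The start region reached 37.7-fold, 144 bp from the nearest of its 3 annotated starts, while the outer gene end, which lies farther upstream, had 4.87-fold. Between 152804258 and 152832017, a stretch of 27.8 kb, 15 regions with 31 summits covered 64.1% of the sequence. Their strongest summits besides the start were 25.3-fold (152805783-152806957), 25.2-fold (152819785-152822857) and 19.7-fold (152804258-152805584). Of the 29 regions, 10 lay nearer to an end of the neighbouring gene Cox4i2 and were not assigned to Bcl2l1.

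Mcl1 (chr3:95656944-95663179, plus strand, 6.24 kb), whose protein turns over quickly and is needed for the survival of many cell types, was open almost throughout. Its sharpest summit stood 6 bp from the annotated start, at 47.1-fold, and 83.3% of the gene was called open (percentile 98.5). From 95657859 to 95669182, 3 regions with 16 summits covered 98.1% of 11.3 kb. Within them a summit of 23.7-fold (20.5 to 27.1) lay 3.80 kb downstream of the start, close to the gene's far end. Beyond that end the strongest summits were 19.8-fold (16.97 to 23.0) and 19.1-fold (16.3 to 22.3). Upstream, 7.87 kb from the start, a separate region at 95650041-95651366 reached 26.9-fold (23.6 to 30.6).

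**Figure D2:**
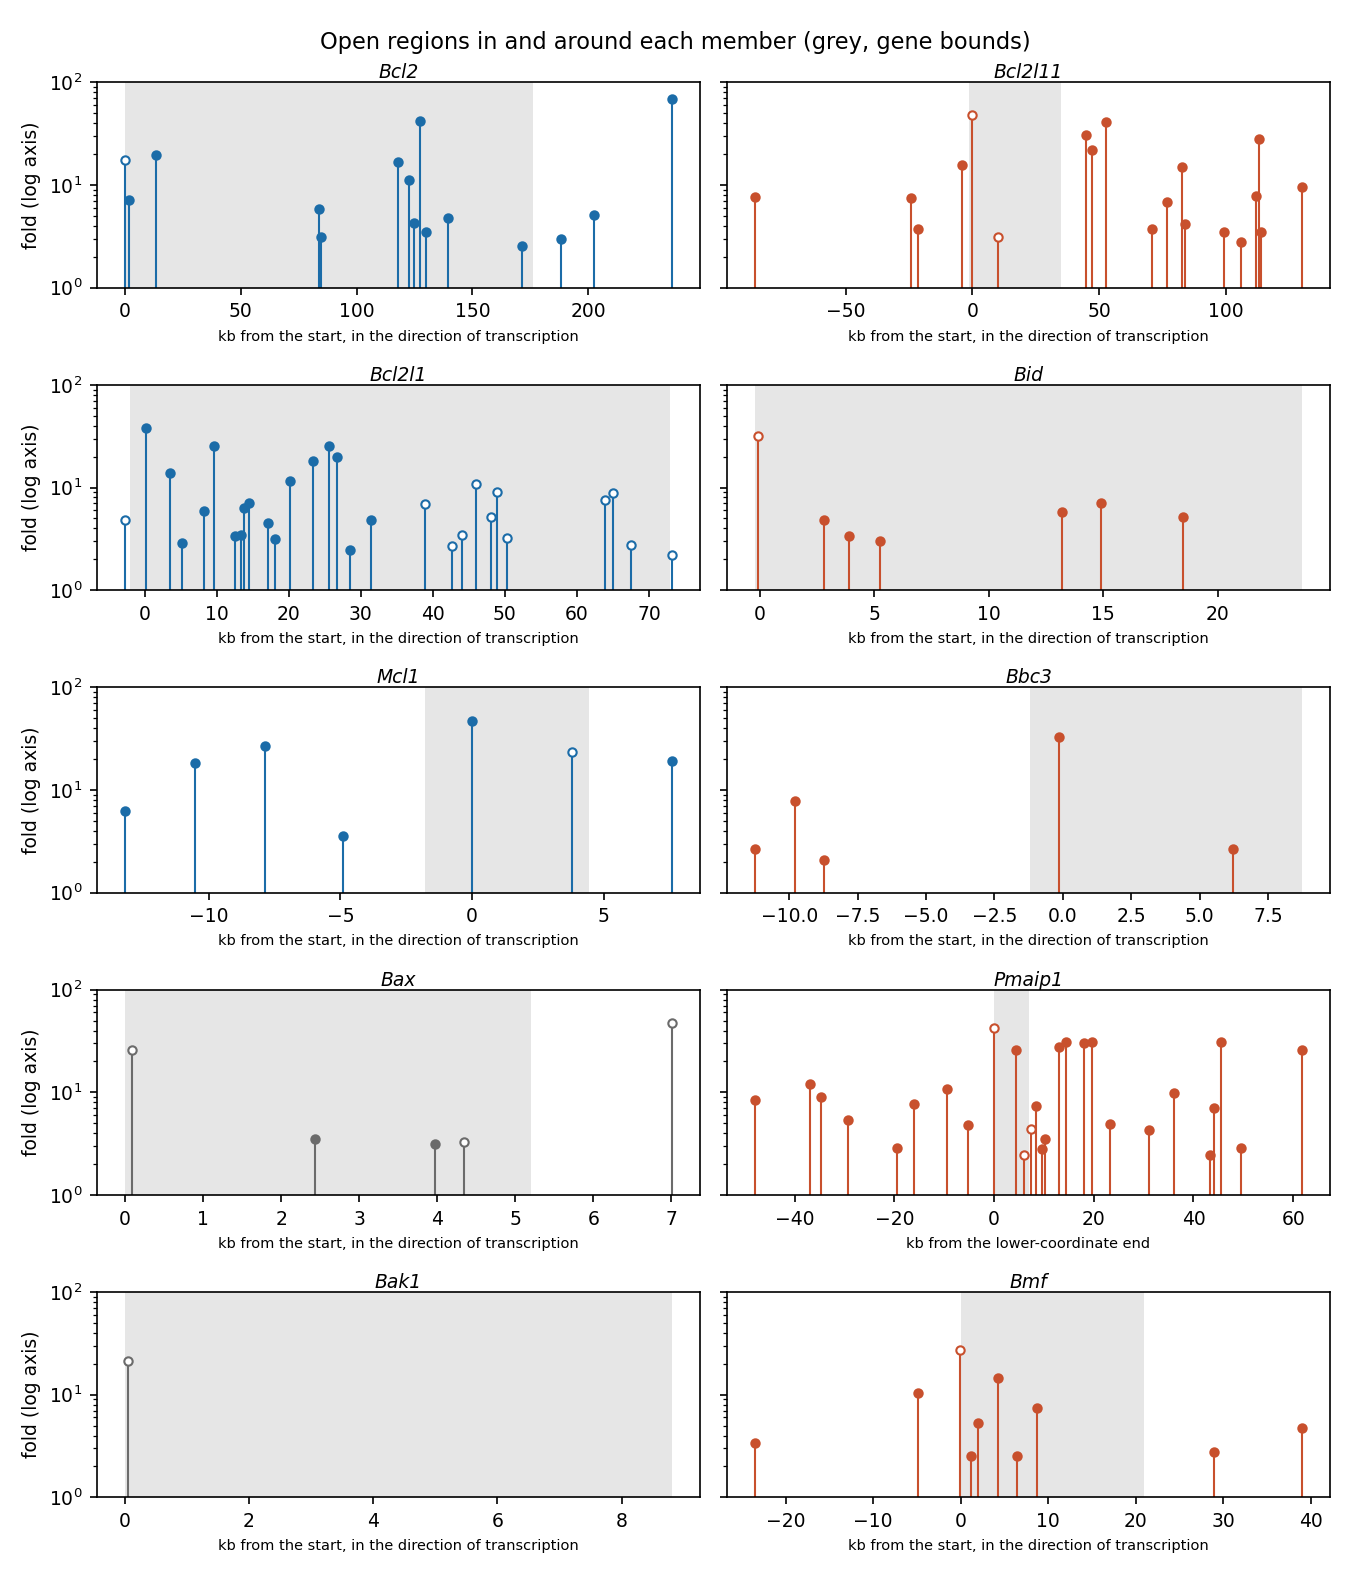
Fold of each open region (log y axis) against the distance of its strongest summit from the annotated start that lies nearest the gene's strongest start summit, in kb in the direction of transcription (for Pmaip1, from the lower-coordinate end); grey marks the gene bounds. Filled points are regions assigned to the gene as away from gene ends, and open points are regions at a gene end or nearest to another gene's end. Bcl2 and Bcl2l11 have strong regions far outside the start, Bcl2l1 has many regions along the gene, and Bak1 has 1 region.

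The effectors are short genes with their strong summits at the start. Of Bax 51.4% was called open (percentile 95.7), and of Bak1 17.9% (percentile 81.9). Bax (chr7:45461695-45466903, minus strand, 5.21 kb) and Bak1 (chr17:27019812-27028627, minus strand, 8.82 kb) are the genes whose proteins form the mitochondrial pore. Bax had 1 strong summit, 25.6-fold, 94 bp downstream of its start, and its other regions inside the gene reached 3.48-fold at most. The plot of regions along each gene also shows a 47.1-fold summit beyond the far end of Bax, which lies in a region (45457915-45461452) nearest an end of Ftl1, the ferritin light chain gene, and was not assigned to Bax. Bak1, which lies within the bounds of Ggnbp1, had 2 summits in 1 region, at the start, and none of the regions away from gene ends. It was the only member without such a region, whereas 69.7% of protein-coding genes had at least 1.

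Of the BH3-only genes, Bcl2l11 (chr2:128126038-128162547, plus strand, 36.5 kb) combined the most open start with few open regions inside the gene. Both annotated starts lay in 1 region of 3460 bp, 128124952-128128411, with 5 summits. The summit 83 bp upstream of the upstream start had 41.3-fold (37.1 to 45.8), and the summit 113 bp upstream of the downstream start had 48.0-fold. These intervals overlap and the difference was not tested, so neither start was set apart as the more open. Because the upstream start adjoins the end of Acoxl, a peroxisomal oxidase gene, within 1000 bp, the signal there cannot be told apart between both genes. Of the gene 7.14% was called open (percentile 61.2), against a median of 4.51% over protein-coding genes. Besides the start region, 1 region lay inside the gene, with 3.13-fold, and it is nearest to an end of Acoxl. The 17 distal regions assigned to Bcl2l11 all lay outside it. They were 4 within Acoxl and 13 beyond the far end. A group of 3 lay 9.96 to 17.6 kb beyond that end, between 128172115 and 128180704, with 30.5-, 21.9- and 40.8-fold (36.7 to 45.3 for the last). All 3 overlap the annotated long noncoding RNA gene Gm14009. A further one at 128239980-128241253, 78.2 kb beyond the end, had 28.2-fold (24.7 to 31.9).

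Pmaip1 (chr18:66458604-66465558, 6.96 kb) had the most distal regions of the family, 24. NOXA, its product, mainly neutralises MCL1. The region at its lower-coordinate end reached 42.0-fold (37.8 to 46.5), 21 bp from that end. Of the 24 regions 8 lay below the gene, 1 inside it and 15 above it, and 7 had at least 20-fold. Between 66470671 and 66478897 a run of 4 regions covered 73.3% of 8.23 kb with 27.4-, 31.1-, 30.5- and 31.1-fold, equal within their counting intervals. Regions at 66503667-66506246 and 66519022-66520780 reached 30.6- and 25.9-fold, the first with its summit 16 bp from an end of the long noncoding RNA gene Gm9926. Among protein-coding genes of similar length (within 2-fold), the median number of distal regions was 1, and 99.7% had fewer than Pmaip1. The sequence nearest to its ends, from which regions can be assigned to it, was 186 kb. Per 100 kb of that sequence its count lay at percentile 79.8 of protein-coding genes.

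Bbc3 (chr7:16308398-16318334, plus strand, 9.94 kb), the p53 target that encodes PUMA, carried a single block of open chromatin of 6084 bp with 10 summits, 16308487-16314570, and 63.2% of the gene was called open (percentile 97.1). The block had a summit at each side. One of 32.9-fold lay 145 bp upstream of the first of its 3 starts. Another of 32.7-fold (29.0 to 36.7) lay 3.57 kb downstream of the nearest start, inside the gene, with 29.4-fold at the summit beside it. Between them the summits dropped to 6.14-fold (4.62 to 8.02). Both sides were thus equally open within counting error, and the outer gene end had 4.64-fold. The 4 other regions of Bbc3 reached 7.88-fold at most.

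Bid and Bmf had their strongest summits at a start. Bid (chr6:120893119-120917062, minus strand, 23.9 kb), whose product links death receptors to mitochondria when cut by caspase 8, reached 31.9-fold 82 bp upstream of its start. Its 6 distal regions all lay inside the gene and had 3.01- to 7.07-fold. The gene adjoins Bcl2l13, another Bcl2 homolog (chr6:120836206-120892842). Bmf (chr2:118528757-118549686, minus strand, 20.9 kb), a BH3-only gene linked to loss of attachment, had 27.2-fold 30 bp upstream of the outermost of 3 starts, and 14.6- and 5.33-fold at the other starts. Beyond its starts it reached 10.3-fold at most, at 118554235-118555017.

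Regions away from gene ends were unevenly spread over the family. Together the members had 100, with a median of 7.5 per member against 2 per protein-coding gene. Pmaip1 had 24, Bcl2l1 and Bcl2l11 17 each, and Bcl2 14. These counts grow with the sequence that can be assigned to a gene, so they were also taken per 100 kb of it. The median was then 17.5 over the members and 4.11 over all protein-coding genes. Bcl2l1 had 39.5 per 100 kb (percentile 97.8), Bax 38.2, Mcl1 28.4, Bbc3 28.2, Bid 21.3, Bmf 13.7, Pmaip1 12.9 (percentile 79.8), Bcl2l11 7.90 (percentile 66.3), Bcl2 5.66 (percentile 57.6) and Bak1 0. Among protein-coding genes of similar length (within 2-fold), 95.7% had fewer distal regions than Bcl2l11, 90.2% fewer than Bcl2l1 and 72.6% fewer than Bcl2. The place of Bcl2l11, like that of Pmaip1, thus depended on whether the assignable sequence or the length of the gene was taken into account. The value of Bax rests on 2 regions. The counts depend on the assignment: within 25 kb of an end Pmaip1 had 14, Bcl2l1 12, Bcl2l11 6 and Bcl2 4. With the ends of all annotated genes, those not coding for protein included, Pmaip1 had 13, Bcl2l1 7, Bcl2 2 and Bcl2l11 1.

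**Figure D3:**
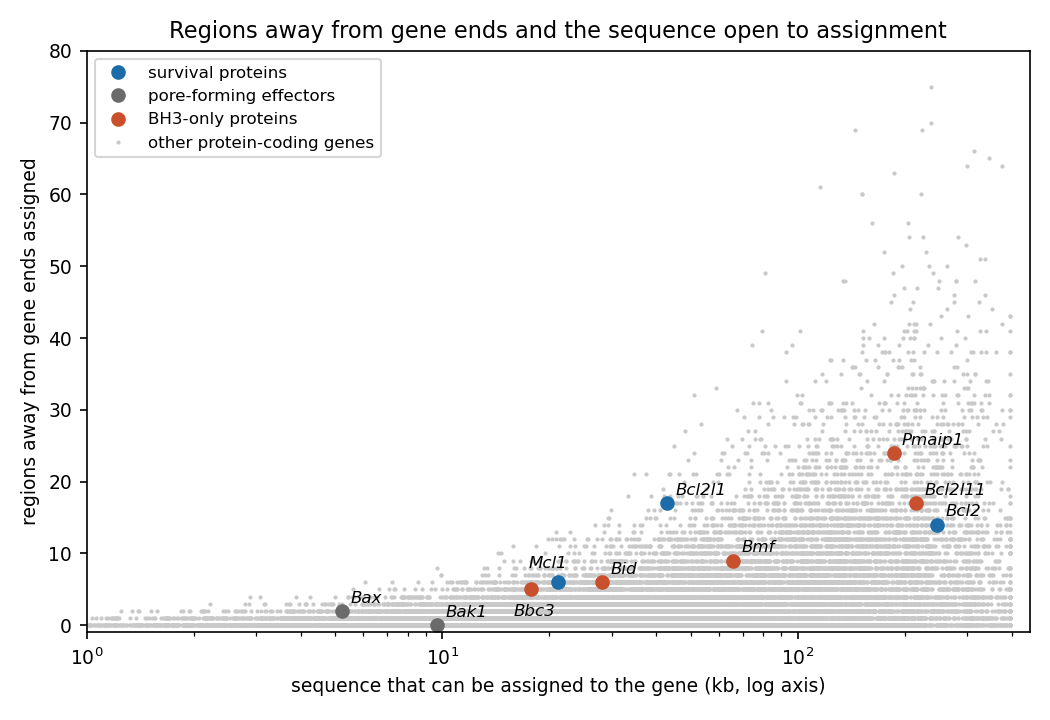
Regions away from gene ends assigned to each gene (y axis) against the sequence that can be assigned to it in kb (log x axis) for the members (coloured by role) and other protein-coding genes (grey). Pmaip1 has 24 and Bcl2l1 17, and Bcl2l1 reaches its number with less sequence than Bcl2l11 or Bcl2; 246 genes with at most 1 kb of such sequence are not drawn.

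The distal regions of the members had a median of 6.55-fold (100 regions), against 4.64-fold over all 86425 assigned regions. At least 20-fold was reached by 19 of 100, against 8.72%. The gene bounds place some starts away from the outer ends, and 7 of the 100 regions reached within 1000 bp of an annotated start of their own gene: 2 at Bcl2l1, 1 at Mcl1, 1 at Bbc3 and 3 at Bmf. Without them 16 of 93 had at least 20-fold (17.2%), against 7.85%. Of these 16, 7 belonged to Pmaip1, 4 to Bcl2l11, 2 to Bcl2, 2 to Bcl2l1 and 1 to Mcl1. Bax, Bak1, Bid, Bbc3 and Bmf had none. The region left out at Bbc3 also holds summits of 29.4- and 32.7-fold, 2.83 and 3.57 kb downstream of the nearest start.

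The ratio of observed to expected CpG in the 300-base promoter window ran from 0.0558 to 1.07 over the 16 annotated starts of 9 members. It was 1.02 at both Bcl2 and Mcl1, the genes with the lowest and the second highest fold at their strongest start. Over all 7132 protein-coding windows with a ratio above 0.75, 95.4% had a summit within 1000 bp and the middle 50% lay between 19.5- and 45.6-fold. Mcl1, at 47.1-fold, was above that range and Bcl2, at 17.7-fold, below it. Bak1 had a ratio of 0.435. In its class (0.25 to 0.5) 45.8% of 3878 windows had a summit and the upper quartile was 11.0-fold, below the 21.1-fold of Bak1. In the same class, the Bmf start with a ratio of 0.319 was above that quartile, at 14.6-fold. The Bmf start with 0.287 was not, at 5.33-fold. A Bcl2l1 start with a ratio of 0.0558 had 13.9-fold. In its class (under 0.25) 18.9% of 5621 windows had a summit and the upper quartile was 0. Both starts of Bcl2l11, with ratios of 0.719 and 0.940, were above the middle 50% of their class, and the strongest starts of Bcl2l1, Bbc3, Bid, Bmf and Bax were within it.

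**Figure D4:**
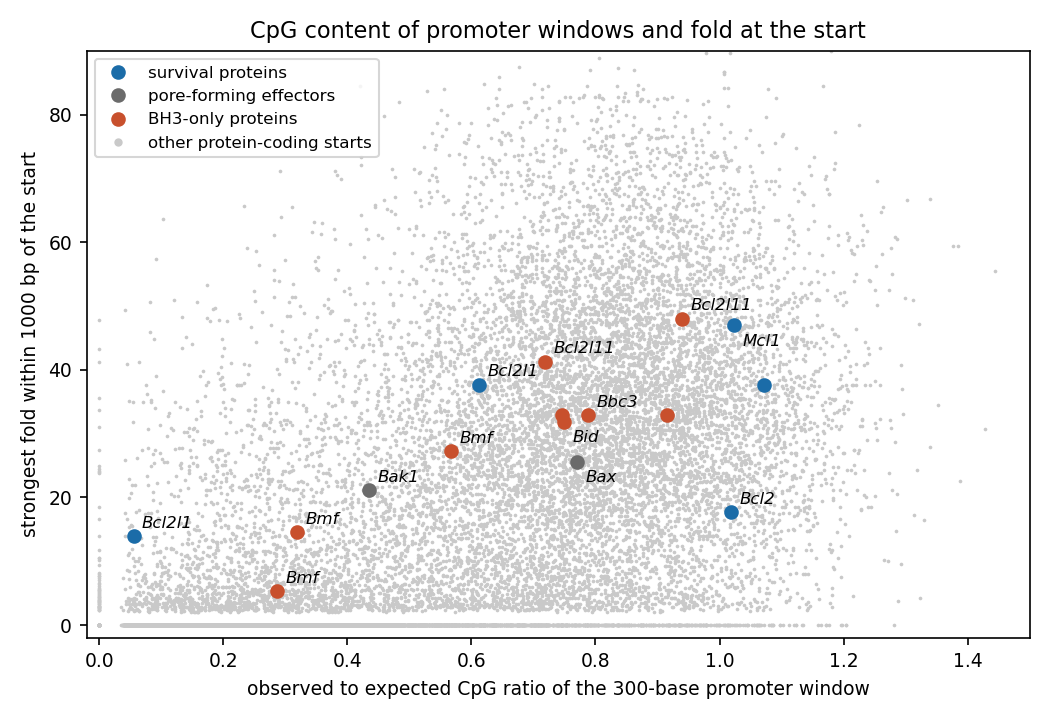
Strongest fold within 1000 bp of each annotated start (y axis) against the observed to expected CpG ratio of its 300-base window (x axis) for member starts (coloured by role, several per gene where annotated) and other protein-coding starts (grey). Mcl1 and Bcl2 share a ratio of 1.02 at 47.1- and 17.7-fold; 10 starts above 90-fold and 1 with a ratio above 1.5 are not drawn.

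Short motifs were searched on both strands in the 16 promoter windows of 9 members. The shares beside each count are those of all 32851 windows of the promoter table and of its 21045 protein-coding windows. The motif TGANTCA of AP-1, the factor that T-5224 inhibits, was in 0 of 16 windows, against 7.81% and 7.04%. The sequence of distal regions was not used here. The cAMP element TGACGTCA (1.79% and 2.26%), the TATA box TATAAA (13.6% and 12.7%) and the ATF4/CHOP motif TGATGNAAT (0.965% and 0.808%) were also in 0 of 16. The FOXO core TGTTTAC was in 2 of 16, against 3.65% and 3.03%: 227 bp upstream of the upstream Bcl2l11 start and 167 bp upstream of the middle Bbc3 start. The p53 decamer was in 2 of 16, Bax, 201 bp upstream of the start, and Bmf, against 8.36% and 7.37%. The E-box CACGTG was in 2 of 16, Bax at 9 bp before and 35 bp after the start and Bbc3, against 7.15% and 7.91%. The ETS core CCGGAAG was in 3 of 16, of Mcl1, Bcl2l1 and Bcl2l11, against 8.86% and 11.7%. The GC box GGGCGG was in 10 of 16, against 35.7% and 46.7%, and CCAAT in 5 of 16, against 37.4% and 38.5%. For NF-kB a loose pattern was used, a run of G and a run of C with 5 free bases between them. It is less strict than a full consensus and can overlap the GC box. This pattern was in 13 of 16, against 50.8% and 57.5%, so its matches do not show NF-kB sites. Windows of neighbouring starts of Bbc3 overlap, so the 16 are not separate stretches.

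The other genes of the pathway were open at their ends in most cases. Of 40 such genes 35 had a summit at an outer end, with a median of 31.0-fold, against 64.3% and 9.62-fold for all protein-coding genes. The same 64.3% is the background for the count of each list. The survival genes outside the 10 members were the exception: 2 of 5 had one. Bcl2l2, a survival gene related to Bcl2l1, had 25.04-fold and Bcl2a1d 3.48-fold, and none was found at Bcl2a1a, Bcl2a1b and Bcl2l10. The Bcl2a1 genes are near-identical copies, so reads shared between them make these values uncertain. All 8 genes of the apoptosome and caspases were open at an end (median 44.7-fold), led by Cycs, which encodes cytochrome c, at 71.8-fold (66.2 to 77.6) and Casp2 at 55.6-fold, whose end is shared with Tmem139.

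Of 5 other Bcl2 homologs 4 had a summit at an end, with Bcl2l13 at 41.3-fold and Bcl2l12 at 32.7-fold, the end it shares with Irf3. Among 6 other BH3-only genes 5 had one, with Bnip3l, a mitophagy receptor, at 55.0-fold and Bad at 38.4-fold, at an end shared with Gpr137. All 6 inhibitor of apoptosis genes and their antagonists had one (median 39.8-fold), with Birc2 at 60.4-fold and Htra2 at 59.2-fold, shared with Aup1. All 7 genes of the death receptor branch had one, with a lower median of 21.4-fold, Fadd at 42.9-fold and Tnfrsf10b at 32.6-fold. All 3 Vdac genes, encoding channels of the outer mitochondrial membrane, had one, Vdac2 at 40.8-fold and Vdac1 at 37.1-fold. The members' median at an outer end, 24.6-fold, was below the 31.0-fold of these genes, and the medians in the gene or within 1 kb were 35.3- and 32.6-fold. At annotated starts the medians were close, 31.9-fold over 9 members and 32.2-fold over the 29 of these genes in the promoter table.

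**Figure D5:**
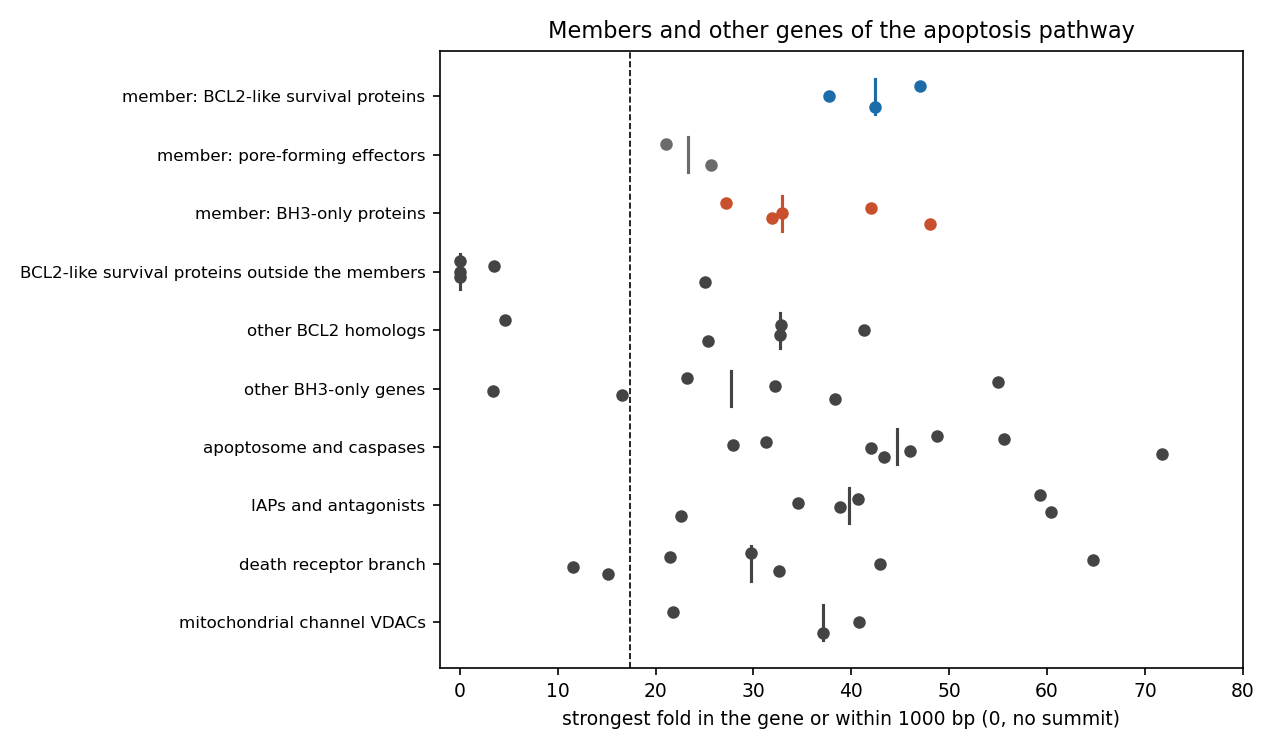
Strongest fold in the gene or within 1000 bp (linear x axis, 0 where there is no summit) for each gene of the members by role and of the other lists of the apoptosis pathway; vertical ticks are list medians and the dashed line is the median of all protein-coding genes, 17.4-fold. All 10 members lie to the right of the dashed line, and 3 of the 5 other survival genes lie at 0.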

How the data were processed

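Bulk ATAC-seq libraries of 4 groups of mouse colonic organoids, 1 per group, were made from nuclei taken after thawing, per the labels' protocols. The data used were 1 narrowPeak list. Per the submitters' processing notes, Bowtie2, MACS2 and mm10 were used. Versions, thresholds, duplicate handling and the libraries behind the list are not stated in those notes. The deposited score equals the −log10 q times 10 without its decimals (checked over all records). The deposited fold is a linear ratio. In the authors' deposited table the −log10 p was 3.02 or more and the −log10 q 1.51 or more. All values belong to peaks, and no sample has a value or depth of its own.

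The fold values were whole multiples of 1 constant in 100% of records (tolerance 0.01). The deposited −log10 p values followed a Poisson tail with a background pileup of 7.63, with a largest gap of 6.03e-06. Pileups of 17 to 8197 were recovered in this way and gave the intervals, which are too narrow if 1 fragment was counted more than once. Repeat content and copy number were not divided out of the fold.

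Gene bounds came from a RefSeq gene table on GRCm38.p6, which shares coordinates with mm10, and starts, strands and promoter sequences from a RefSeq promoter table, in which 9 of 10 members matched. The planned reading of motifs at summits needs a genome, which was not used here. Percentiles and medians are over protein-coding genes, and for start folds over those in the promoter table, with genes lacking a summit at 0 and ties split. The members and lists were chosen with earlier results of these data known. For each list of the pathway the 2 genes with the strongest end were named, with those of the survival list lacking a summit. The stretches and the left-out start regions were chosen after the values were seen. 1 planned leukocyte marker is not reported here. No p-value was computed. The counting steps were tested on simulated data. Python 3.11.15, pandas 2.3.3, numpy 2.4.6, SciPy 1.17.1 and matplotlib 3.10.9 were used.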

Additional observations from a re-analysis of the deposited data

How the results depend on the processing

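No paired analysis was possible because each group had 1 library and the peak list holds no value for a library. Of the summary values, 4 moved beyond the limits set for them with the settings tried. The members' median at an outer end was 24.6-fold and became 32.4-fold with a 2000 bp window. The share of genes below that median was 65.8% of protein-coding genes and 81.7% of all annotated genes. The median of the strongest summit was 35.3-fold in the gene or within 1 kb and 24.6-fold at an outer end alone. The number of distal regions, 100, became 64 with a limit of 25 kb, 170 with each summit counted, and 45 with the ends of all annotated genes, noncoding ones included. It was 86 with 50 kb, 69 for summits whose −log10 q reached 10, 106 and 93 with windows of 250 and 2000 bp, and 93 without the regions at the members' own starts, a setting chosen after seeing the data. With a 250 bp window 8 members had a summit at an outer end, not 10. Pairs of a member and a motif found in it, each counted once, numbered 28 on both strands and 20 on the gene's own strand. Depth limits the weakest regions most: a pileup of 17 is the lowest in the list, so weaker open sites are not seen.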
